A study of Macaca fascicularis with 24 samples.

Results

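The comparison of old and young male aorta in cynomolgus macaques (Macaca fascicularis) rests on 12 of the 24 microarrays of the series, those titled OM1 to OM6 (Om5 included) and YM1 to YM6. Each array read RNA of the thoracic aorta. The old males had a mean age of 20.0 years and the young males one of 6.6 years; no treatment and no genetic change is given for either group. The arrays YM3 and YM4 were nearly identical and were averaged, which left 11 of the 21 samples of the series: 6 old and 5 young. The labels do not say that the samples came from separate animals, and the p-values then cover only how far these samples scatter. Nor do the labels say which layers of the wall were kept or whether surrounding fat was removed, so each value is an average over the whole piece of tissue. Values are log2(intensity + 16) after quantile normalisation, called levels below, and a difference is the old mean minus the young mean. On this scale a difference of 1 is a 2-fold difference for a bright gene and understates the change of a dim one. The monkey RNA was read with human probes.

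The aorta is an elastic artery. Smooth muscle cells of its middle layer lay down elastin lamellae and fibrillar collagens, a single sheet of endothelium lines the lumen, and the outer layer holds fibroblasts, nerves and small vessels and merges into fat. With age the large arteries are known to stiffen and to calcify.

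In all 11 samples the smooth muscle list was bright: its mean level over 21 genes lay between 12.97 and 13.72 in old and between 13.09 and 13.42 in young males. ACTA2, smooth muscle actin, had levels between 14.41 and 15.03. The arrays OM2, OM4 and YM1 stood apart. Their median correlation with the other arrays of the series was 0.81 to 0.82, against 0.92 to 0.93 for the 9 remaining male arrays. Their deposited median intensity was 239 to 264.1 against 153.4 to 184.9, their spike-in controls were at 12.52 to 13.96 against 10.87 to 11.84, and their actin probe sets read 0.79 to 1.72 higher at the 3′ than at the 5′ end, against -0.25 to 0.66. The same measure for GAPDH overlapped, at 0.71 to 1.38 against -0.04 to 0.76. YM1 differed from its label in 1 further way. XIST, an RNA made from the silenced X chromosome of females, was at 10.31 in YM1, between 6.09 and 8.14 in the other male samples and between 11.18 and 13.11 in females. RPS4Y1, a gene of the Y chromosome, was at 11.97 in YM1, between 12.45 and 12.95 in the other male samples and at most 8.34 in females. Where leaving out OM4, YM1 or all 3 of these arrays moved the difference of a gene described with its SE (MYH11 and ACTA2 were not recomputed) by more than 1.5 times, a value without them is given. The near-identity of YM3 and YM4 was seen in the SD of their log2 difference, 0.266 against at least 0.427 for pairs outside the 3 such pairs of the series.

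No probe set passed an adjusted p of 0.05 in limma over all 22215 non-control probe sets (0 percent called). The smallest adjusted p was 0.0731 and belonged to a pair of probe sets of aggrecan (ACAN). Among the 11108 brighter probe sets those 2, or 0.018 percent, passed. Before adjustment 872 probe sets had a limma p below 0.05, fewer than the 1111 that a test at this threshold returns without any difference; 418 (1.88 percent) were higher and 454 (2.04 percent) lower in old males. Per gene, with the brightest probe set standing for each of 11963 genes, the shares were 1.84 percent higher (220) and 2.01 percent lower (241). All 6 old values lay above all 5 young values for 36 genes (0.301 percent) and below them for 37 (0.309 percent). The mean was higher in old males for 50.2 percent of the genes, the median difference was 0.001, and the 5th and 95th percentiles were -0.58 and 0.62. The genes and lists below are described against this background. None of them but ACAN, and under a pair of other settings AKR1B10, reached the threshold in any analysis, so their values are differences of means with their errors.

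COL1A2, which encodes the alpha 2 chain of type I collagen, the main fibrillar collagen of the vessel wall, read 13.76, 13.66, 13.50, 13.10, 14.12 and 14.10 in OM1 to OM6 and 14.45, 14.99, 14.50, 14.70 and 14.69 in YM1, YM2, YM3, YM5 and YM6. Every old sample was below every young one, the gap being narrowest for OM5 and OM6. The difference was -0.96 ± 0.23 (SE; adjusted p = 1 in limma), and a second, dimmer probe set of the gene read -1.29 ± 0.44. COL1A1, its partner chain, was at 12.62 to 13.70 in old and 13.91 to 14.76 in young males, a difference of -1.11 ± 0.39. COL3A1, type III collagen, was at 12.90 to 13.78 and 13.93 to 14.75, a difference of -0.80 ± 0.31. For all 3 genes the old and young values did not overlap. Their further probe sets were lower in old males too, except 1 dim probe set of COL1A1 at 0.01 ± 0.48. Without OM2, OM4 and YM1 the differences of COL1A2, COL1A1 and COL3A1 were -0.85, -1.07 and -0.74.

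The 3 genes belong to a list of fibrillar collagens with 9 measured members, of which 5 had a lower and 4 a higher mean in old males. The list's median was -0.35, and -0.16 without the 3 divergent samples. The type V chain COL5A2, which helps to set the width of type I fibrils, had a difference of -0.45 ± 0.29 (-0.26 without those samples), while the remaining chains lay between -0.35 and 0.49. These genes are expressed by fibroblasts and by smooth muscle cells alike. Fewer cells of a type and less RNA per cell cannot be told apart in a bulk sample. The fibroblast list, which holds the same 3 collagens, had a median of -0.03 over 14 genes, with 7 lower and 7 higher.

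**Figure D1:**
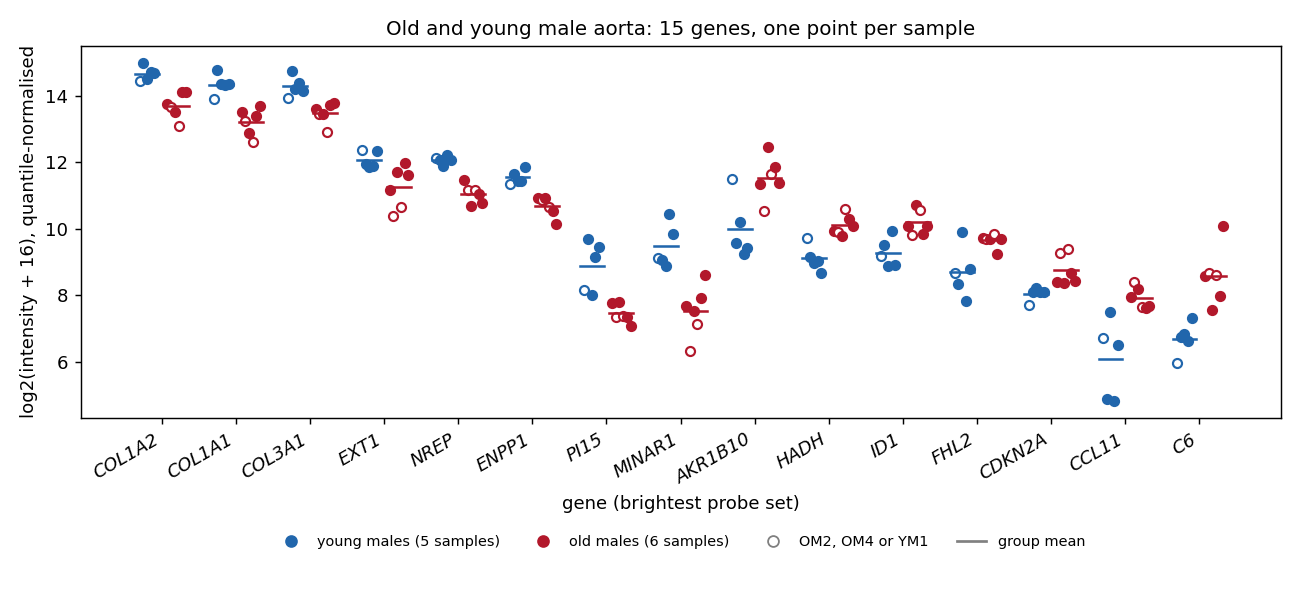
Level, log2(intensity + 16) after quantile normalisation (vertical axis), of 15 genes (horizontal axis) in the 5 young (blue) and 6 old (red) male samples, each point a sample, each line a group mean and open points OM2, OM4 and YM1. The old samples lie wholly below the young ones for COL1A2, COL1A1, COL3A1, NREP, ENPP1, PI15 and MINAR1 and wholly above them for HADH, CDKN2A, CCL11 and C6, while in AKR1B10 the open young point at 11.49 lies within the old group.

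Of the other matrix lists, the elastic fibre list had 21 of 21 measured members lower in old males, with a median of -0.35, and no member with an unadjusted p below 0.05. ELN, elastin itself, read 12.86, 11.88, 13.09, 10.71, 13.32 and 12.80 in OM1 to OM6 and 13.48, 14.20, 11.44, 13.75 and 14.52 in the young samples. The groups overlapped widely, YM3 being lower than all old samples but OM4, and the difference was -1.03 ± 0.60. FBN1, the main fibrillin of the microfibrils, differed by -0.79 ± 0.38, LOX, which cross-links elastin and collagen, by -1.30 ± 0.65, and EMILIN1, a glycoprotein at the interface of elastin and microfibrils, by -0.80 ± 0.46. The differences of FBN1, LOX and EMILIN1 were -0.52, -0.80 and -0.35 without OM4, and those of FBN1, LOX, EMILIN1 and ELN were -0.26, -0.66, -0.16 and -0.46 without the 3 divergent samples. EMILIN1 was at 6.94 there and at 8.76 to 10.63 in the other old samples. Without OM4 the list's median was -0.07 and 8 of 21 members were higher, and without YM1, itself the lowest young sample on this list, the median was -0.68. The basement membrane list, with the sheet-forming collagens and laminins, had 12 of 17 members lower and a median of -0.31, or -0.17 without YM2. LAMB2 and COL4A6 were lower by means of -0.65 ± 0.25 and -0.91 ± 0.37, with overlapping groups; LAMB2 was at -0.41 without the divergent samples. LAMB1 went the other way: its 6 old values, 9.94 to 11.14, lay above the 5 young values, 9.26 to 9.88, a difference of 0.67 ± 0.30 that became 0.46 without the divergent samples.

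Heparan sulfate, the sugar chain through which many growth factors reach their receptors, is polymerised by a complex that contains EXT1. EXT1 was at 10.38 to 11.98 in old and 11.86 to 12.37 in young males, a difference of -0.83 ± 0.24 with overlap only through OM5. Without the 3 divergent samples the difference was -0.39. Over the list of heparan sulfate enzymes and core proteins, 17 of 24 members were lower, with a median of -0.17, and EXT1 was the 1 member with an unadjusted p below 0.05. MMP16, a membrane-bound metalloproteinase, was at 8.70 to 9.43 in old males and at 10.10 to 10.16 in 4 young samples, with YM1 at 9.24. Its difference of -0.85 ± 0.32 was -1.02 without YM1, when the groups did not overlap, as for 221 of the 11963 genes. TIMP4, a metalloproteinase inhibitor, had a difference of 1.74 ± 0.69, but YM1 at 10.53 exceeded all old samples and OM3 at 6.75 lay among the young. Without YM1 it was 2.61. CCN5, a matricellular protein of vascular smooth muscle, was at 7.81 to 10.03 in old and 5.38 to 8.90 in young males, a difference of 1.73 ± 0.69.

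Aggrecan, the large proteoglycan that swells cartilage and is also present in arteries, had the largest difference of the named genes. ACAN read 10.56, 10.06, 9.39, 8.67, 11.50 and 12.17 in OM1 to OM6 and 6.72, 7.79, 7.36, 7.33 and 7.26 in the young samples, a difference of 3.10 ± 0.50. The adjusted p was 0.0731 over all probe sets, 0.0474 over the brighter ones, and between 0.00155 and 0.318 over all the alternatives. OM5 and OM6 had the highest levels. COL10A1 and COMP, both used by cartilage, were also highest in these 2 samples. COL10A1, the collagen of hypertrophic cartilage, read 7.97, 5.6, 6.38, 5.85, 8.62 and 9.19 in the old samples and 4.93 to 5.64 in the young ones, so that OM1, OM3, OM5, OM6 and OM4 lay above all young samples and OM2 did not. Its difference was 1.86 ± 0.56 (adjusted p = 1 in limma), with a mean below the median of all probe sets, 7.59, so its level is close to the dim end of the array. COMP, a cartilage glycoprotein that binds collagen, reached 10.56 in OM5 and 11.28 in OM6 but was between 5.26 and 8.53 in the other old samples and between 7.21 and 8.10 in young males; its difference, 0.79 ± 0.79, was no larger than its error, and was 1.43 without OM4 and 1.67 without the 3 divergent samples. CHAD, chondroadherin, was at 8.06 in OM6 and at 4.6 to 5.97 in the other old samples.

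Over the cartilage list 11 of 17 members were higher, with a median of 0.19, which was 0.09 without YM2 and 0.34 without YM1. Only 3 of the 17, ACAN, COL10A1 and CHAD, had an unadjusted limma p below 0.05. SOX9, the transcription factor of cartilage cells, differed by -0.51 and HAPLN1, the link protein that fixes aggrecan to hyaluronan, by -0.93, so both had a lower mean in old males. COL2A1, the principal cartilage collagen, was dim and differed by 0.49. Neither SOX9 nor HAPLN1 had an unadjusted limma p below 0.05.

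Regulators of calcification differed among themselves. ENPP1 makes extracellular pyrophosphate, an inhibitor of mineral deposition. It read 10.93, 10.88, 10.93, 10.67, 10.55 and 10.16 in OM1 to OM6 and 11.34, 11.65, 11.45, 11.45 and 11.85 in the young samples, with no overlap and a difference of -0.86 ± 0.22 (adjusted p = 1 in limma). It was -0.95 without the divergent samples, and a dim second probe set of ENPP1 read 0.07 ± 0.47. MGP, matrix Gla protein, an inhibitor of calcification in arteries, was at 11.40 in OM4 and at 12.53 to 14.11 in the other old samples, against 11.74 to 12.73 in young males. Its difference was 0.72 ± 0.38 with all samples and 1.35 without the divergent ones, when its old and young values no longer overlapped. TNFRSF11B, osteoprotegerin, a decoy receptor that limits bone resorption, and FMOD, fibromodulin, a small proteoglycan of collagen fibrils, behaved alike in this respect. TNFRSF11B went from 0.60 ± 0.74 to 1.73 and FMOD from 0.78 ± 0.44 to 1.38 when OM2, OM4 and YM1 were left out, and neither then overlapped; TNFRSF11B was at 1.12 without OM4 alone. OM4 had the lowest old value of both. Without OM2, OM4 and YM1, 576 of the 11963 genes did not overlap, since fewer samples overlap less often. Over the calcification list 8 of 17 members were higher and the median was -0.01.

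**Figure D2:**
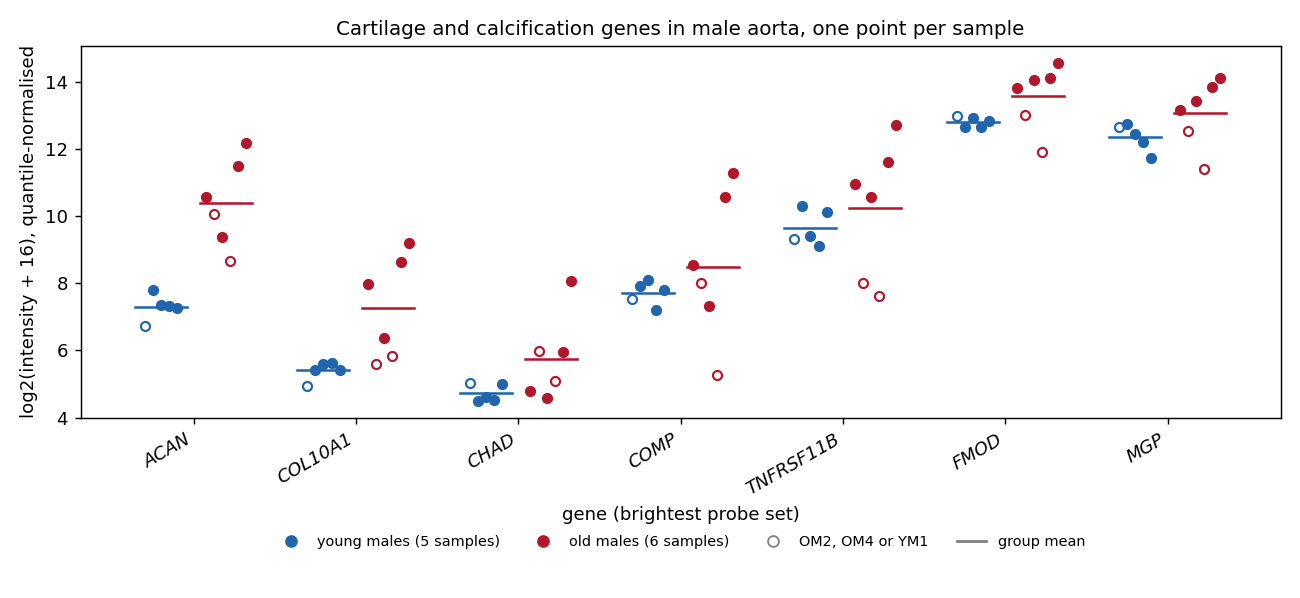
Level, log2(intensity + 16) after quantile normalisation (vertical axis), of 7 genes of cartilage and calcification (horizontal axis) in young (blue) and old (red) male samples, each point a sample, each line a group mean and open points OM2, OM4 and YM1. ACAN separates the groups, whereas COMP and CHAD are high in only 1 or 2 old samples and the open old points lie lowest in TNFRSF11B, FMOD and MGP.

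PI15, a secreted protein of the cysteine-rich family, read 7.76, 7.36, 7.80, 7.38, 7.36 and 7.08 in the old samples and 8.15, 9.71, 8.0, 9.16 and 9.47 in the young ones, a difference of -1.44 ± 0.32. The old samples were close together, near the median of all probe sets (7.59), and all young samples were above them. MINAR1, a membrane protein described as a partner of the Notch receptor NOTCH2, was at 6.34 to 8.61 in old and 8.89 to 10.44 in young males, a difference of -1.94 ± 0.43, the largest of the lower genes named by the rule. NREP, an intracellular protein found in neurons and in contractile fibroblasts of healing wounds, was at 10.70 to 11.46 and 11.88 to 12.22, a difference of -1.02 ± 0.23. The 5 young samples differed by little in NREP (SD 0.12), and even the highest old sample was below them. The adjusted p in limma was 0.692 for PI15 and MINAR1 and 0.722 for NREP.

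Several receptors followed. The receptor phosphatase PTPRD was at 10.26 to 10.61 in young males and at 9.68 to 10.05 in 5 old ones, with OM4 at 7.77; its difference was -0.99 ± 0.32, and -0.65 without OM4 or -0.60 without the 3 divergent samples. EPHB3, a receptor for ephrins, was at 7.03 to 8.44 in old and 8.47 to 8.98 in young samples (-0.81 ± 0.30), and ADGRL1, an adhesion receptor of the latrophilin family, at 8.88 to 9.60 and 9.44 to 10.98 (-0.93 ± 0.27). EPHB3 did not overlap and ADGRL1 did. SLC22A17, a receptor for lipocalin 2, separated the groups, with 9.52 to 10.09 in 5 old samples against 10.18 to 10.62 in the young, but its difference of -1.21 ± 0.53 rested on OM4 at 5.66 and was -0.52 without that sample and -0.38 without the 3 divergent ones. LRRC17, a secreted leucine-rich repeat protein, was at 9.44 to 11.21 in old males and at 11.53 to 12.29 in 4 young ones, with YM1 at 10.76. Its difference of -1.04 ± 0.32 was -1.26 without YM1, when the groups did not overlap, as for 221 of the 11963 genes. The secreted olfactomedin-like protein OLFML2A was at 7.48 to 8.18 and 8.25 to 9.28 (-0.64 ± 0.24).

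Inside the cell, the lower genes included BACH2, a transcriptional repressor best known in lymphocytes (-1.09 ± 0.32), CRTC3, a coactivator of the cAMP-responsive factor CREB (-0.45 ± 0.13), CBX6, a Polycomb protein (-0.53 ± 0.17), and ZNF106, a zinc finger protein (-0.52 ± 0.17). CRTC3 and ZNF106 did not overlap between the groups. ASB13, a substrate adaptor of a ubiquitin ligase, had a difference of -1.56 ± 0.49, with OM3 at 8.38 among young values of 7.69 to 9.05. IPCEF1, a protein that binds exchange factors of ARF GTPases, differed by -1.11 ± 0.33, and KIAA0753, a centriole protein, by -0.96 ± 0.40 with no overlap. Without the divergent samples the difference of KIAA0753 was -0.66 and that of CRTC3 was -0.32. CRTC3 thus had a small difference but 1 of the smallest errors among the named genes.

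Genes of transforming growth factor beta and bone morphogenetic protein signalling went both ways. In this list 15 of 29 members were higher and 14 lower, with a median of 0.03. ID1, an inhibitor of transcription factors and a direct target of bone morphogenetic protein signals, was at 9.83 to 10.71 in old and 8.87 to 9.95 in young males, a difference of 0.91 ± 0.24. Only YM5, at 9.95, lay within the old range. ENG, endoglin, an accessory receptor of the same family on endothelium, differed by 0.68 ± 0.23 and read 10.02 to 10.99 against 9.52 to 10.34. TGFB2, a ligand, was lower by a mean of -0.85 ± 0.35, with young samples at 9.03, 9.21, 10.66, 10.75 and 11.03 and old ones at 8.36 to 9.98; a dimmer probe set of TGFB2 read 0.31 ± 0.63. SMAD3, the transcription factor that carries the signal of the TGF-beta receptors, differed by -0.45 ± 0.20, of which YM1 at 10.76 made much, since the difference was -0.22 without it; 3 dimmer probe sets of SMAD3 read 0.09 to 0.17.

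Several of the higher genes take part in lipid handling. HADH, an enzyme of mitochondrial fatty acid oxidation, read 9.93, 9.90, 9.80, 10.59, 10.30 and 10.09 in OM1 to OM6 and 9.74, 9.16, 8.96, 9.04 and 8.66 in the young samples. The groups did not overlap, although YM1 came close to OM3, and the difference was 0.99 ± 0.27. AKR1B10, an aldo-keto reductase that reduces retinal and lipid aldehydes, was at 10.55 to 12.46 in old males and at 9.24 to 10.20 in 4 young ones, with YM1 at 11.49. Its difference was 1.55 ± 0.43 with all samples (adjusted p = 1 in limma) and 2.14 without the divergent samples. Its adjusted p was then 0.0424, in a limma fit that also left out female samples with a median correlation below 0.85. Over all alternatives its adjusted p ran from 0.0125 to 1. CIDEC, a lipid droplet protein, was higher by a mean of 1.16 ± 0.40, MGLL, which releases fatty acids from monoglycerides, by 1.38 ± 0.43, and ELOVL6, an elongase of saturated fatty acids, by 1.36 ± 0.52. ELOVL6 did not overlap between the groups, at 8.42 to 10.81 against 7.23 to 8.26.

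Markers of fat cells were higher beside these genes. In the white adipocyte list the old mean exceeded the young one for 25 of 26 measured members, with a median of 1.18, and 6 had an unadjusted limma p below 0.05 on the higher side. The mean level of the list ranged from 7.56 to 10.84 in old and from 7.34 to 10.49 in young males. PPARG, the master regulator of fat cells, read 9.23, 10.42, 7.17, 11.56, 9.63 and 9.49 in the old samples and 11.12, 5.45, 7.80, 7.66 and 5.30 in the young ones. OM3 was as low as the young samples and YM1 as high as the old ones, and the mean of the list had the same 2 exceptions. LPL, lipoprotein lipase, and G0S2, an inhibitor of fat breakdown, differed by 1.91 ± 0.91 and 1.84 ± 0.83 with the same exceptions; G0S2 was at 2.81 without YM1. Of the secreted hormones that define fat cells, ADIPOQ was dim (6.48 in old and 5.73 in young males on average) and LEP was dim and level at 4.95 in both groups, while the fatty acid carrier FABP4 was bright, at 12.99 and 11.46. The list's median was 0.93 without OM4, 1.60 without OM3, 1.64 without YM1 and 1.04 without the 3 divergent samples. The part of fat cells in the differences of HADH, MGLL, CIDEC and the other lipid genes was not tested.

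**Figure D3:**
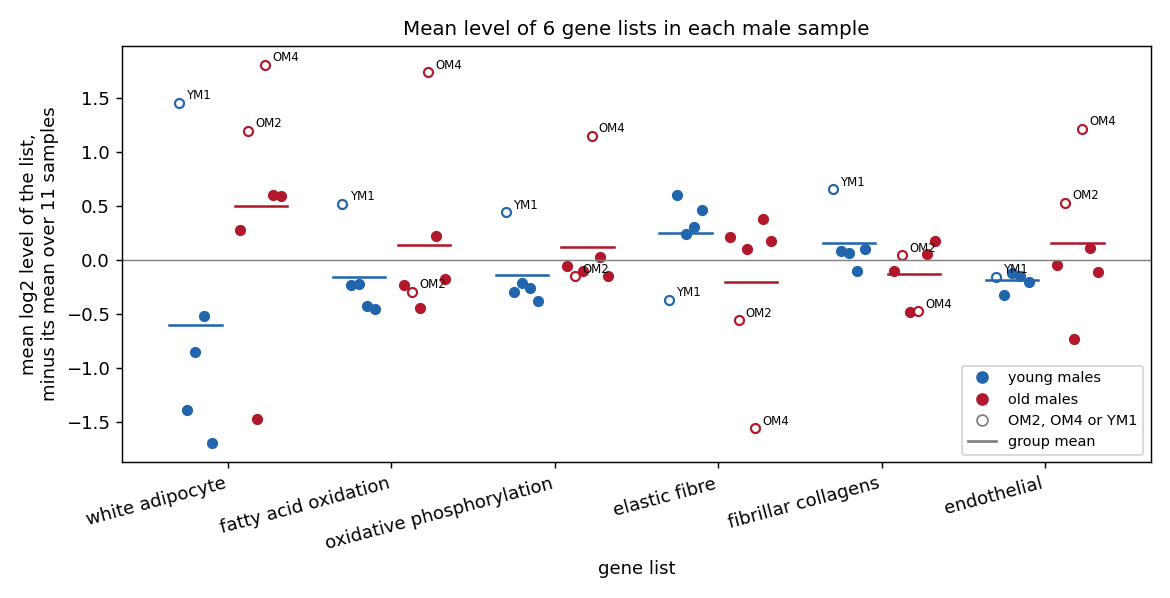
Mean log2 level of 6 gene lists in each male sample, minus the list's mean over the 11 samples (vertical axis), for young (blue) and old (red) males, each point a sample, each line a group mean and open points OM2, OM4 and YM1. OM4 is the highest sample for the adipocyte, oxidation and endothelial lists and the lowest old one for elastic fibre genes, and YM1 is the highest young sample for 4 of the 6 lists.

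UCP1, the uncoupling protein that makes brown fat produce heat, had the largest SD among old males of the genes above the median of all probe sets, 2.57. It read 7.47, 8.56, 5.26, 12.23, 11.24 and 7.77 in OM1 to OM6 and 6.28, 5.79, 5.61, 6.89 and 5.46 in young males. OM4 and OM5 were far above every other sample and OM3 was below all young ones. The difference was 2.75 ± 1.36 and 2.05 without OM4. CIDEA, a second gene that brown fat expresses strongly, was at 12.47 in OM4, 10.99 in OM5 and 10.87 in OM6, but also at 11.37 in YM1, where UCP1 was only 6.28. The other members of the brown fat list were between -0.32 and 0.82, and the list's median of 0.35 over 11 genes was 0.07 without OM4.

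Genes of the sterol pathway had higher old means throughout. The cholesterol synthesis and uptake list was higher in all 19 measured members (18 where arrays were centred on their medians), by a median of 0.33, 3 of them with an unadjusted limma p below 0.05 and 2 without overlap. MSMO1, a demethylase of lanosterol derivatives, was at 8.60 to 10.87 in old and 7.89 to 8.85 in young males (1.05 ± 0.35). EBP, the sterol isomerase, was at 8.90 to 10.40 against 8.56 to 8.75 and did not overlap (0.72 ± 0.25; a dim probe set of EBP read -0.61 ± 0.61). FDPS, which makes farnesyl pyrophosphate, differed by 0.49 ± 0.18 and NSDHL, a sterol dehydrogenase, by 0.89 ± 0.44. OM4 was the highest sample for each of these 4 genes. Without OM4 the list's median was 0.22 with 15 of 19 members higher, and without the 3 divergent samples it was 0.25 with 14 of 19 higher. On this list YM1, at 8.84, was again the highest young sample, but closer to the others, at 8.45 to 8.72, than on the adipocyte list.

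Mitochondrial genes were higher on average, by an amount that depended on OM4 and on YM1. The oxidative phosphorylation list had 53 of 62 members higher with a median of 0.29, the tricarboxylic acid cycle list 21 of 23 with a median of 0.25, and the fatty acid oxidation list 20 of 24 with a median of 0.33. The mean level of the oxidative phosphorylation list was 11.48 in OM4 and at most 10.36 in the other old samples. Without OM4 the medians of the 3 lists were 0.02, -0.02 and -0.04, and the numbers of higher members were 37 of 62, 10 of 23 and 10 of 24. Without OM4, OM2 and YM1 together the medians were 0.21, 0.19 and 0.20, with 58 of 62, 19 of 23 and 17 of 24 members higher. Without YM1 alone they were 0.40, 0.40 and 0.49. The mitochondrial ribosomal protein list, with 33 of 45 higher and a median of 0.19, depended less on OM4, its median being 0.15 without it. MRPL40, a protein of the large mitochondrial ribosomal subunit, was at 9.24 to 9.40 in 5 old samples, at 10.30 in OM4 and at 8.79 to 9.10 in young males (0.55 ± 0.19, and 0.39 without OM4). In glycolysis 15 of 24 members were higher with a median of 0.14, or 0.23 without OM3. The aldolases ALDOC and ALDOA differed by 1.93 ± 0.76 and 0.49 ± 0.21, the latter being 0.32 without OM4. ALDOC had the same exceptions as the fat markers, at 8.65 in OM3 and 12.14 in YM1.

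**Figure D4:**
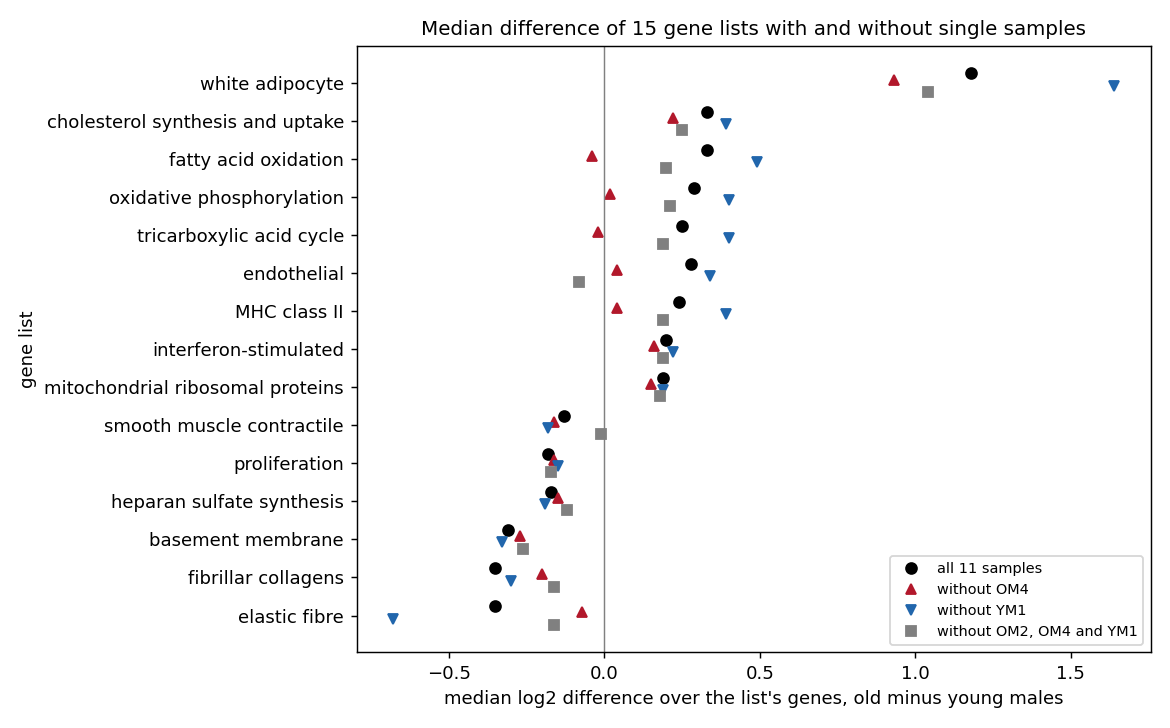
Median log2 difference, old minus young males (horizontal axis), over the genes of 15 lists (vertical axis), with all 11 samples (circles) and without OM4, YM1 or the 3 divergent samples. The medians of the fatty acid oxidation, oxidative phosphorylation and tricarboxylic acid cycle lists lie at or near 0 without OM4, while those of the adipocyte and cholesterol lists stay at 0.93 and 0.22.

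Other higher genes are described singly. FGF1, a growth factor for fibroblasts, endothelium and fat, read 9.21, 9.87, 11.73, 9.32, 10.91 and 10.63 in old males and 9.76, 7.99, 8.72, 8.98 and 8.29 in young ones. Only YM1 lay within the old range, and the difference was 1.53 ± 0.50, or 2.13 without the divergent samples. CP, the copper-carrying ferroxidase ceruloplasmin, was at 9.57 to 12.33 against 8.68 to 9.68 (1.56 ± 0.47). ARHGAP1 was at 10.34 to 10.88 against 9.76 to 10.35, a difference of 0.51 ± 0.14, or 0.33 without the divergent samples. Its 2 further probe sets read 0.58 ± 0.33 and -0.11 ± 0.37. FHL2, a LIM-domain protein of muscle cells, was at 9.24 to 9.86 in old males, a narrow range, and at 7.83 to 8.79 in 4 young ones, with YM3 at 9.92 above them all; the difference was 0.95 ± 0.31. RBM7, an RNA-binding subunit that targets transcripts to the nuclear exosome, was at 8.54 to 8.78 in all 6 old samples and at 7.49 to 8.54 in young ones (0.69 ± 0.24). The actin-regulating protein EPS8 was at 9.80 to 10.56 against 8.95 to 9.57 (0.70 ± 0.23), and ALAD, an enzyme of haem synthesis, at 8.01 to 8.77 against 7.53 to 7.98 (0.54 ± 0.24, with a dimmer probe set at -0.03 ± 0.43). PPP1R14B, an inhibitor of protein phosphatase 1, was at 9.09 to 9.47 against 8.60 to 8.98 (0.56 ± 0.23). RBM7, EPS8, ALAD and PPP1R14B did not overlap between the groups, RBM7 by less than the rounding.

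CDKN2A, which encodes the cell cycle inhibitors p16INK4a and p14ARF and is a common marker of senescent cells, was higher in every old sample than in every young one. It read 8.41, 9.26, 8.38, 9.38, 8.68 and 8.43 in OM1 to OM6 and 7.70, 8.09, 8.21, 8.10 and 8.09 in the young samples. The difference was 0.72 ± 0.24 (adjusted p = 1 in limma). The highest old values were in OM2 and OM4 and the lowest young one in YM1. Without these 3 samples the difference was 0.35 (unadjusted p = 0.113 in limma). Groups that do not overlap cannot come to overlap when samples are left out. The other 2 probe sets of CDKN2A were dim and read 0.13 ± 0.40 and 0.34 ± 0.42. CDKN1A, the inhibitor p21, differed by 0.59 ± 0.31 with overlapping groups, and by 0.94 without the 3 samples. Over the senescence list 12 of 19 members were higher with a median of 0.22 (0.12 without OM3), and CDKN2A was the 1 member with an unadjusted p below 0.05. Of 26 proliferation genes 19 were lower, with a median of -0.18 (-0.11 without YM3). BUB1B, a kinase of the mitotic spindle checkpoint, was at 4.86 to 6.31 against 6.41 to 6.98 (-1.06 ± 0.40), and MCM7, a subunit of the replication helicase, differed by -0.57 ± 0.28 (-0.21 without the 3 samples, and 0.19 ± 0.46 on a dim probe set). Most of these genes were dim, only 9 of the 26 being above the median of all probe sets.

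Genes that respond within minutes or over the day varied between samples. ATF3, a stress-induced transcription factor, was at 9.45 to 10.55 in 5 old samples and 12.06 in OM3, against 10.55 to 12.13 in young ones (-1.30 ± 0.46, or -0.80 without the divergent samples). JUNB, another early response factor, and KLF2, a factor induced by blood flow, were higher by means of 0.90 ± 0.36 and 0.70 ± 0.28. JUNB was at 8.15 in YM1, and its difference was 0.54 without that sample. KLF2 was at 11.86 to 13.18 in 5 old samples and at 11.41 to 11.59 in all young ones, OM3 at 11.50 being within the young range. PER2 and CRY1, repressors of the circadian clock, differed by -0.79 ± 0.27 and -0.68 ± 0.38. In CRY1, 4 young samples were at 10.87 to 11.29 and the old ones at 9.14 to 10.62, with YM1 at 9.02 below all of them, and the difference was -1.09 without YM1. The immediate early list had 14 of 21 members higher (median 0.18, or 0.36 without OM2) and the clock list 8 of 16 (median 0.00, or -0.21 without YM1). The time of day at which tissue was taken is not given in the labels.

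Among immune genes, 2 dim genes of secreted proteins separated the groups. C6, a component of the membrane attack complex of complement, read 8.59, 8.68, 7.56, 8.61, 7.99 and 10.09 in old and 5.96, 6.75, 6.83, 6.62 and 7.32 in young males. The difference was 1.89 ± 0.42 (adjusted p = 0.692 in limma) and 1.68 without the divergent samples. CCL11, eotaxin, which attracts eosinophils, was at 7.63 to 8.39 in old males and at 6.72, 4.89, 7.49, 4.83 and 6.51 in young ones, a difference of 1.83 ± 0.51. Both had a mean over all samples below the median of all probe sets. IL16, a chemoattractant for CD4+ cells, was at 8.32 to 9.01 against 7.65 to 8.23 and did not overlap (0.66 ± 0.31, or 0.39 without the divergent samples; 1 dim probe set read -0.18 ± 0.35). The lists to which these genes belong did not follow them. Complement had 12 of 20 members higher (median 0.11, or 0.35 without YM3) and chemokines and their receptors 10 of 30 (median -0.15). The macrophage list had 11 of 19 members higher (median 0.18) and the T and NK cell list 8 of 21 (median -0.14). The macrophage median was -0.02 without YM5 and the T and NK cell median 0.00 without YM1 or YM6, so neither list had a direction that held. Interferon-stimulated genes had 20 of 24 higher with a median of 0.20, which was 0.19 without the divergent samples and 0.31 without YM3. In that list OAS3, an antiviral sensor, was at 8.48 to 9.56 against 7.24 to 8.89 (0.67 ± 0.30), a difference that was 0.41 without YM1 and 0.23 without the 3 divergent samples. The MHC class II list had 11 of 12 members higher with a median of 0.24, which was 0.04 without OM4.

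Contractile genes of smooth muscle were lower by small amounts: 15 of 21 members, with a median of -0.13, or 20 of 21 and -0.23 where arrays were centred on their medians. Without the 3 divergent samples the median was -0.01. The myosin MYH11 differed by -0.14 ± 0.30 and ACTA2 by -0.02 ± 0.18. DES, desmin, an intermediate filament of muscle, was among the 6 higher members and had the largest difference of the list. It was at 10.89 to 12.86 in old males and at 9.01 to 10.26 in 4 young ones, with YM3 at 11.50, a difference of 1.62 ± 0.61. In the list of calcium handling and ion channels 18 of 27 members were lower with a median of -0.11, and -0.25 without YM1. The 4 members of this list with an unadjusted p below 0.05 were all lower, among them ATP2A3, a calcium pump of the endoplasmic reticulum (-0.91 ± 0.40), KCNMA1, the large-conductance potassium channel that relaxes smooth muscle (-0.51 ± 0.24), and TRPC4, a cation channel (-0.90 ± 0.29). TRPC4 was dim, at 4.92 to 5.38 in old males. KCNMA1 was bright, at 11.57 to 12.30 against 12.28 to 12.76, with overlap only through OM2 at 12.30 and YM2 at 12.28.

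Endothelial genes had a higher mean in 17 of 21 cases with a median of 0.28. TEK, the receptor of the angiopoietins, read 7.75 to 9.21 in old males, 7.79 to 7.94 in 3 young ones, and 5.14 and 5.85 in YM1 and YM6, a difference of 1.24 ± 0.44. It was 0.79 without YM1 and 0.44 without the 3 divergent samples. ROBO4, an endothelial guidance receptor, differed by 0.70 ± 0.29, and by 0.19 without them. EGFL7, a secreted endothelial protein with a mean below the median of all probe sets, differed by 1.46 ± 0.52. The mean of the list was 7.58 in OM3 and 9.53 in OM4, while the 5 young samples lay between 7.99 and 8.19. The median of 0.28 was 0.04 without OM4, 0.54 without OM3 and -0.08 without the 3 divergent samples. A direction for the endothelial genes as a group therefore depended on which samples were kept.

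The spread between samples of the same age was large beside some of these differences, such as those of COMP and TNFRSF11B. It was smaller than others, such as those of COL1A2 and NREP. Over the 6952 genes above the median of all probe sets, the median SD was 0.42 among old and 0.35 among young males, and 0.23 and 0.24 without the 3 divergent samples. In young males the widest gene was PLA2G2A, a secreted phospholipase of the acute-phase response, at 9.07, 8.23, 14.85, 9.97 and 7.44 in YM1, YM2, YM3, YM5 and YM6. C3 and CFB, components of the alternative complement pathway, had the same outlier, at 13.51 and 14.26 in YM3 against at most 10.18 and 9.33 in the other young samples. HBB, the beta chain of haemoglobin, was at 15.03 in YM6 and 9.44 to 11.34 in the other young samples, and at 13.72 in OM6. In old males the widest genes after UCP1 included COMP and TNFRSF11B, with SDs of 2.20 and 2.02 against 0.35 and 0.53 among young males.

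GSTA4, a glutathione transferase that clears lipid peroxidation products, went against AKR1B10: its old values of 9.28 to 10.02 were all below its young values of 10.04 to 10.55, by a mean of -0.42 ± 0.17. Over the antioxidant and aldehyde list 17 of 26 members were higher (median 0.08), and 13 of 26 (median 0.00) where arrays were centred on their medians. The cytosolic ribosomal protein list had 14 of 43 members higher and a median of -0.03, but 4 of 43 and -0.17 where arrays were centred on their medians, and 5 of 43 and -0.13 with the deposited scaling. Lists with medians close to 0 included the proteasome (19 of 32, 0.04), the DNA repair list (11 of 24, -0.05) and the Notch list (8 of 16, -0.03). The endoplasmic reticulum stress list had 19 of 22 members higher with a median of 0.12, and the glucocorticoid target list 10 of 15 with a median of 0.31. The latter was 0.13 without YM6, and the former lay between 0.06 without YM5 and 0.21 without YM3. None of the 64 lists had a member past the threshold over all probe sets.

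The age difference was set beside that of the females, whose 10 samples are different ones. Their mean age was 21.2 years for old and 7.2 years for young females. The sexes share the estimate of the spread, the quantile normalisation and the choice of the probe set that stands for a gene. In the series 7 arrays had a median correlation below 0.85, and those other than OM2, OM4 and YM1 were female. The female differences below include these divergent female arrays. Over all 11963 genes 6612, or 55.3 percent, had the same sign in both sexes. Of the 43 genes chosen in males by the smallest p or by the lack of overlap, 33 had the same sign in females. Of the 15 lower genes of smallest p 13 did so, and of the 15 higher ones 9; the difference between these counts was not tested. The 3 collagens were lower in old females too, COL1A2 by a mean of -0.41 ± 0.24, COL1A1 by -0.45 ± 0.41 and COL3A1 by -0.62 ± 0.33, as was ENPP1 (-0.52 ± 0.23). LRRC17, PTPRD and KIAA0753 had female differences of -0.87, -0.83 and -0.85. MINAR1, in contrast, differed by 0.13 ± 0.45 in females and by -1.94 in males, and HADH by -0.25 ± 0.29 and 0.99. ENG had a female difference of -0.47 ± 0.24 beside 0.68 in males.

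The difference between the age effects of the sexes was itself tested. No probe set passed (0 percent of 22215 called; smallest adjusted p 0.9887 in limma), and 640 (2.88 percent) had an unadjusted p below 0.05. Among the 43 genes 11 had an unadjusted p below 0.05 for this difference, among them ENG (1.15), MINAR1 (-2.07) and ACAN (2.50). These genes were chosen for their differences in males. The adipocyte list, with a median of 1.18 in males, had one of 0.17 in females with 20 of 26 members higher. The cholesterol list, at 0.33 in males, had one of 0.05 with 10 of 19 higher. The oxidative phosphorylation median was 0.29 in males and 0.02 in females. Other medians were closer: elastic fibre -0.35 and -0.30, basement membrane -0.31 and -0.25, interferon-stimulated 0.20 and 0.20. The MHC class II median was 0.24 in males and 0.48 in females. No list was tested for a difference between the sexes.

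**Figure D5:**
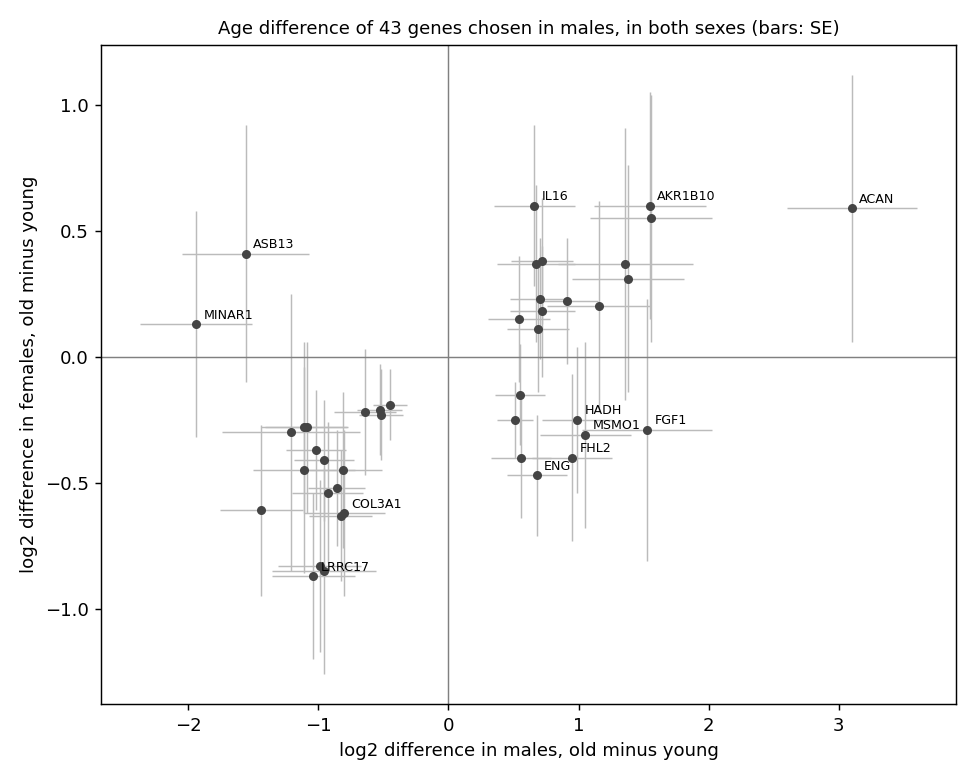
Log2 difference, old minus young, in males (horizontal axis) and in females (vertical axis) for the 43 genes chosen in males, each point a gene with bars of 1 SE in both directions. The lower genes cluster at negative female values, with MINAR1 and ASB13 as the exceptions, while the higher genes lie on both sides of 0 in females.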

How the data were processed

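The deposited values were linear intensities, 1 per probe set of a human expression array; the authors' summary and scaling steps are not given in the sources used here. The 62 control probe sets were left out, the intensities were converted to log2(intensity + 16), and the 24 arrays were quantile normalised. Of 276 pairs of arrays, 3 were nearly identical and were averaged, which gave 21 samples. The 4 groups of age and sex were fitted in 1 model with limma 3.58.1 (lmFit, eBayes with a trend) in R 4.3.3, with Benjamini-Hochberg adjustment over 22215 probe sets. The fit was tested on simulated data. By the annotation of the platform, 19064 probe sets carried 1 symbol, 1043 carried several, and 2108 are unnamed here. The brightest probe set stood for a gene. Array number limits the precision.

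Genes were named from several sets. These were genes past the threshold, and the 15 higher and 15 lower genes of smallest p above the median level of 7.59. The 12 largest non-overlapping differences each way were another set. Further sets were the 4 smallest p or the defining members of a described list, and the 10 genes of largest SD in a group. Not every gene of these sets is described. The members and the gene lists were chosen with earlier results of these data known. Alternatives covered scaling, pseudocount, dim probe sets, single arrays, array weights, a replicate block and omitted samples. Replicate numbers did not pair the samples.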

Additional observations from a re-analysis of the deposited data

Results flagged for a closer look

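In 240 groups, old or young males for each of 91 genes and 29 list means, the highest or lowest sample was compared with its nearest neighbour by Dixon's ratio, which chance exceeds in about 1 in 20 groups. It did so in 32 groups, 12 times for YM1 and 9 times for OM4.

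YM1 was the lowest young sample for CDKN2A (7.70), LAMB1 (9.26), MMP16 (9.24), JUNB (8.15) and CRY1 (9.02). It was the highest for OLFML2A (9.28) and SMAD3 (10.76), and for the list means of fibrillar collagens (11.39), fatty acid oxidation (9.87), the tricarboxylic acid cycle (10.40), oxidative phosphorylation (10.77) and MHC class II (10.08). OM4 was the lowest old sample for LRRC17 (9.44), PTPRD (7.77) and SLC22A17 (5.66). It was the highest for MRPL40 (10.30) and for the list means of fatty acid oxidation (11.09), the tricarboxylic acid cycle (11.35), oxidative phosphorylation (11.48), cholesterol synthesis (9.75) and MHC class II (10.78). Both samples are among the 3 that diverged from the other arrays; the part of this divergence in the single values was not tested.

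Among the other samples, OM3 was lowest for TIMP4 (6.75) and LPL (7.59), OM5 for FHL2 (9.24), OM6 for KCNMA1 (11.57), OM1 for GSTA4 (9.28) and OM2 for the heparan sulfate list (7.92). YM3 was lowest for ATP2A3 (8.47) and ALDOA (12.60) and highest for the complement list (9.75). YM6 was lowest for EPS8 (8.95) and YM5 for the proliferation list (7.30).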

How the results depend on the processing

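All 43 genes named by smallest p or lack of overlap kept their sign under the 21 alternatives, and so did the other named genes tested. These genes were chosen in the same samples, which favours a kept sign. For the 26 of the 43 without overlap, leaving out samples could not have changed it. The number of probe sets past the threshold was 0 in the main analysis. It was 2 with the deposited scaling, 2 over the brighter probe sets and 2 with 24 arrays counted singly. It was 3 with array weights, 2 with a replicate block and 2 without the divergent samples. That last fit also left out the divergent female samples, which otherwise enter the estimate of the spread. The probe sets were those of ACAN, joined by AKR1B10 with array weights and without the divergent samples. Leaving out 1 sample at a time gave 0 to 2: 2 without OM3 or OM4, 1 without YM1 and 0 without any other. Non-overlapping genes numbered 73 of 11963 with all samples, 50 with arrays centred on their medians and 58 with the deposited scaling. Over the brighter probe sets they numbered 48. They numbered 100 to 221 of 11963 without 1 sample, YM1 giving the 221, and 576 of 11963 without the divergent samples. Fewer samples overlap less often, so these larger counts cannot be set against the 73. The difference between sexes gave 0 calls under every alternative that fitted both sexes. Probe sets with an unadjusted limma p below 0.05 numbered 1819 with array weights against 872. The block is a fit in which samples share only a number: deviations of same-numbered old and young males correlated between -0.29 and 0.10, and none correlated best with its own number. Low signal limits COL10A1, C6, CCL11, CHAD, TRPC4, EGFL7 and BUB1B, whose means lie below the median probe set.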
